A study of Mus musculus with 13 samples.

Results

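Resting splenic B cells of mice were compared with and without Regnase-1, the RNA-cutting enzyme encoded by Zc3h12a, in 7 of the 13 RNA-seq libraries of the study. The comparison takes the 3 libraries of deficient cells (Regnase-1 f/f hCD20TamCre) against the 4 libraries of control cells (Regnase-1 +/+ hCD20TamCre), neither stimulated through the B cell receptor, and every gene symbol with enough reads to test. That left 13574 of 23337 symbols. Both genotypes carried hCD20TamCre, a Cre recombinase driven by the B cell gene CD20 and switched on by tamoxifen, so the controls share the transgene. No source used here states when tamoxifen was given or how old the animals were. The cells were naive B cells from spleen, selected by removing cells that bear CD43. Another 6 libraries, 3 of each genotype, had been stimulated through the receptor for 4 h, and they serve here as a second state of the same genotypes.

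Regnase-1 binds short stem-loops in the 3′ untranslated regions (UTRs) of messenger RNAs and cuts them, which shortens the life of transcripts for cytokines and for regulators of the NF-kB pathway. It also acts on its own messenger RNA. NF-kB and AP-1 are transcription factor families that antigen and cytokine receptors switch on in lymphocytes, and the octamer-binding factors with their coactivator set much of the B cell expression program.

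The 7 unstimulated libraries held 21407724 to 32078095 counts. Levels below are TMM-normalized counts scaled to the library total (CPM), changes are log2 values of deficient minus control with their standard error (SE), and a call means an adjusted p (Benjamini-Hochberg) below 0.05 in the quasi-likelihood test of edgeR. Xist and Y-linked transcripts marked deficient library 1 and control libraries 2 to 4 as female and the other 3 as male, and deficient library 2 held Xist at 10.6 CPM and control library 2 Y-linked transcripts at 4.78 CPM. Deficient library 1 also had the highest summed erythroid markers, 1880 CPM against 407 to 1110 CPM in the other 6. The first principal component, with 39.7% of the variance, did not separate the genotypes. It did separate the sexes, with female libraries at -4.34 to 30.5 and male libraries at -32.5 to -12.6. Summed neutrophil markers split the same way, at 144 to 546 CPM in female and 67.9 to 122 CPM in male libraries. So did myeloid markers, at 280 to 644 CPM and 186 to 263 CPM. Sex and these markers cannot be told apart on this component. Pan-B markers summed to 17430 to 20060 CPM in control libraries, and 15280 to 18660 CPM in deficient ones, with 0 of 13 called. The labels do not say that each library is a separate animal; if some are not, the p-values measure a spread that is in part technical.

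Zc3h12a itself (chromosome 4, 125118423 to 125127840, minus strand, mm10) was at 124, 131, 121 and 124 CPM in control libraries 1 to 4 and at 89.2, 99.6 and 111 CPM in deficient libraries 1 to 3. The groups did not overlap. The change was -0.32 ± 0.07 (SE; adjusted p = 0.106 in edgeR's quasi-likelihood test), so this transcript was not called. It passed without deficient library 3 (-0.40, adjusted p = 0.0372), in DESeq2 (adjusted p = 0.0175) and in a fit that included the sex of the library (adjusted p = 0.00848). In edgeR it failed without deficient library 1 (adjusted p = 0.268) or 2 (0.307) and with a replicate block (0.151). It also failed there without any 1 control library (adjusted p from 0.187 to 0.257), and in limma on the deposited log2 values (adjusted p = 0.170). Counts per gene include exons outside a floxed segment, so the labels are checked by this level only partly. None of the 82 tested genes within 5 Mb on either side of the locus was called, the smallest adjusted p among them being 0.161.

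Few genes passed the test, and most of those changed by less than 1.5-fold. The test called 44 of 13574 genes (0.324%), of which 17 rose (0.125%) and 27 fell (0.199%) in deficient cells. In all 44 the 3 deficient libraries lay outside the range of the 4 control libraries, which was true of 8.72% of all tested genes. Among the 44 only Slit3, Nfkbiz and Cdk5rap1 rose and only Eng fell by more than 2-fold, and 31 stayed under 1.5-fold. A test against a minimum fold of 1.5 called 2 genes (0.0147%). Over all genes the median change was -0.02, and for 8577 of the 9779 genes whose mean log2 CPM reached 2 (87.7%) the 95% interval of the change lay within 1.5-fold in either direction. The split of 17 higher and 27 lower was 21 and 20 with DESeq2's size factors and 36 and 34 with upper-quartile factors. In a fit of the 7 unstimulated libraries alone 50 genes were called, 31 higher and 19 lower, with 31 of the 44 among them, so the majority direction depended on the setting. Genes named below that lost their call there included Batf (adjusted p = 0.0637), Eng (0.0698), Zbtb46 (0.0673), Cdk5rap1 (0.0682), Cdk5r1 (0.144) and Samsn1 (0.142).

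**Figure D1:**
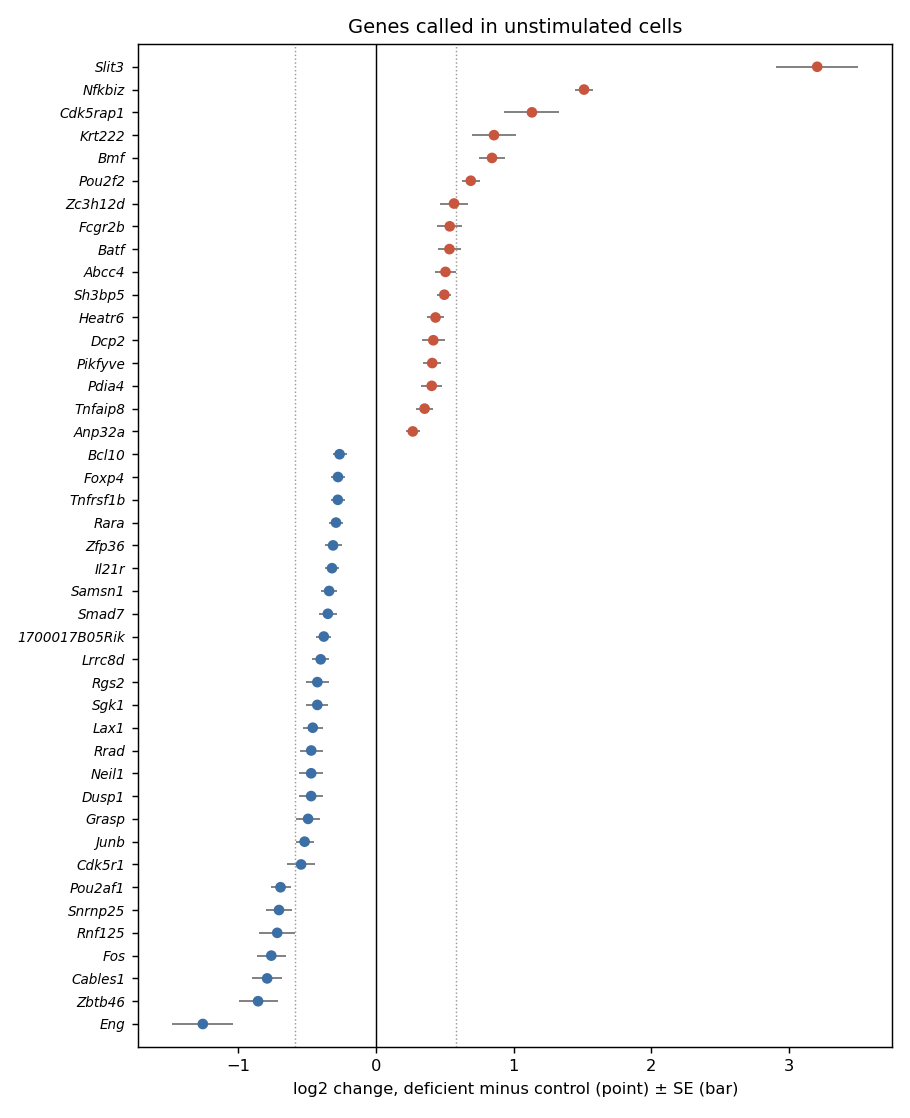
Log2 change, deficient minus control, of 43 of the 44 called genes in unstimulated cells (point) with its SE (bar). Red points are the 17 genes that rose and blue points those that fell, and the dotted lines mark a fold of 1.5, which most did not reach.

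Nfkbiz was the gene with the smallest p. It encodes IkBζ, an atypical nuclear member of the IkB family that acts with NF-kB on a second wave of genes, and its transcript is an established Regnase-1 target. Nfkbiz (chromosome 16, 55811375 to 55838899, minus strand, mm10) was at 82.5, 91.6, 87.5 and 88.0 CPM in the control libraries and at 231.5, 251 and 265 CPM in the deficient libraries. All deficient libraries lay far above all control libraries, with little spread in either group. The change was 1.51 ± 0.06 (SE), with a 95% interval of 1.38 to 1.64 and an adjusted p of 2.66e-09 in edgeR, and it remained between 1.46 and 1.56 when each of the 7 libraries was left out.

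The stem-loops that Regnase-1 is known to read have a loop of pyrimidine, purine and pyrimidine, and the 3′ UTR of Nfkbiz holds a pair of them close together near its start. They are shown because Nfkbiz carries the clearest rise, and those of Zc3h12a because its own transcript is regulated the same way. Sequences are from GENCODE vM21 transcripts (mm10), read 5′ to 3′ on the transcript, with T for U, the 3-base loop in capitals and at least 6 base pairs (G-U included) on its sides. 
Nfkbiz stem-loop 1 (chr16:55812613-55812629, minus strand, 3′ UTR bases 101 to 117 of 1355): ttgtttcTATgaaacaa
Nfkbiz stem-loop 2 (chr16:55812581-55812605, minus strand, 3′ UTR bases 125 to 149): tagttcactatTATatagtggatta
Zc3h12a stem-loop 1 (chr4:125119069-125119083, minus strand, 3′ UTR bases 196 to 210 of 856): gatacaCATtgtatc
Zc3h12a stem-loop 2 (chr4:125118886-125118902, minus strand, 3′ UTR bases 377 to 393): taggcacCATgtgcctg
Zc3h12a stem-loop 3 (chr4:125118662-125118678, minus strand, 3′ UTR bases 601 to 617): atttaaaTATtttaaat

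Such matches were counted over all called genes, Nfkbiz included. At least 1 stem-loop of this form was found in the 3′ UTR of 9 of the 17 genes that rose (52.9%) and of 11 of the 27 that fell (40.7%), against 5072 of the 11574 tested genes with an annotated 3′ UTR (43.8%). Per kilobase of 3′ UTR the number was 0.507 in genes that rose, 0.572 in genes that fell and 0.475 over all. Slit3, Pou2f2, Batf and Fcgr2b, which rose, held none. Fos, which fell, held 3, of which the longest stem is shown for comparison with those of Nfkbiz. Zc3h12d, which rose, held 2, and both are shown. A match is a description of letters and does not show binding.
Fos stem-loop (chr12:85476846-85476866, plus strand, 3′ UTR bases 388 to 408 of 815): gtgctggatTGTatctagtgc
Zc3h12d stem-loop 1 (chr10:7868246-7868262, plus strand, 3′ UTR bases 177 to 193 of 2327): ttggggaTGCtccctga
Zc3h12d stem-loop 2 (chr10:7869777-7869791, plus strand, 3′ UTR bases 1708 to 1722 of 2327): gatggcTATgttgtt

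Transcripts reported as cut by Regnase-1 did not rise as a list. Of 17 that could be tested 1 rose, Nfkbiz, and 0 fell, while 0.125% of all genes were called higher. In the list 8 of 17 lay above 0, against 44.7% of all genes. The median change was -0.05 against -0.02 over all genes. After Nfkbiz the smallest p belonged to Ctla4, which encodes a T cell coinhibitory receptor and was at 4.01 ± 1.17 CPM (SD, n = 4) in control and 6.09 ± 1.48 CPM (n = 3) in deficient cells (0.60 ± 0.24 SE, adjusted p = 0.486 in edgeR). The cytokine transcript Il6 was near the floor, at 0.352 ± 0.159 CPM (n = 4) and 0.602 ± 0.150 CPM (n = 3), where 3 counts in a library correspond to 0.0935 to 0.140 CPM.

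Nfkbiz was also the single called gene among the NF-kB subunits and IkB proteins. Of the 14 genes in that list 2 lay above 0, against 44.7% of all genes, and the median was -0.14. Nfkb2 and Rela, which encode NF-kB subunits, and Nfkbia, which encodes the inhibitor IkBα, had estimates of -0.24 ± 0.05 (SE; adjusted p = 0.0867), -0.21 ± 0.05 (adjusted p = 0.167) and -0.19 ± 0.05 (adjusted p = 0.161) in edgeR and were not called. Among 23 genes that NF-kB induces or that feed back on it 1 rose and 2 fell, with a median of -0.10. Over all genes 0.125% were called higher and 0.199% lower. Tnfaip8, which encodes an anti-apoptotic protein induced by TNF, rose from 54.5 ± 1.69 to 69.7 ± 1.96 CPM (0.35 ± 0.06 SE, adjusted p = 0.0174 in edgeR). Bcl10, the adaptor that links antigen receptors to NF-kB, was at 115, 116, 107 and 111 CPM in controls and 92.9, 91.9 and 96.2 CPM in deficient ones, a fall of 0.26 ± 0.05 (SE) on the log2 scale. Tnfrsf1b, the gene for TNF receptor 2, fell by 0.28 ± 0.05 (SE). The adhesion molecule gene Icam1 had an estimate of -0.33 ± 0.07 (SE; adjusted p = 0.0729) and was not called.

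**Figure D2:**
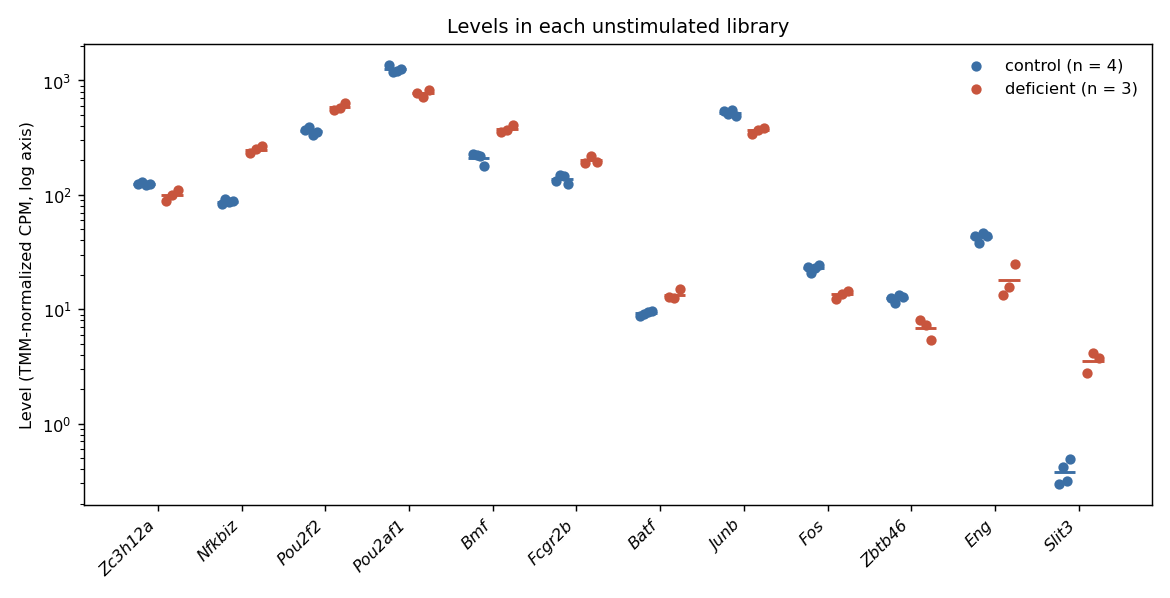
TMM-normalized CPM (log axis) of 12 genes in each of the 4 control and 3 deficient unstimulated libraries, with a bar at each group mean. The groups do not overlap for any of the 12, which were picked for display. All but Zc3h12a are called genes, and the groups overlap for none of the 44 called. Over all tested genes 8.72% show no overlap. The gap is widest for Slit3 and Nfkbiz.

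Both partners of an octamer complex moved, in opposite directions. Pou2f2 encodes OCT2, the octamer-binding factor of B cells, and Pou2af1 encodes OCA-B, the coactivator that binds octamer factors on DNA. Pou2f2 (chromosome 7, 25087344 to 25179726) was at 369, 392, 335 and 352 CPM in control libraries, and 552, 569 and 630 CPM in deficient ones. It rose by 0.69 ± 0.06 (SE; adjusted p = 9.65e-05 in edgeR), or 1.61-fold. Pou2af1 (chromosome 9, 51213708 to 51240080) was at 1367, 1185, 1204 and 1266 CPM in controls and 781, 723 and 829 CPM in deficient ones, a change of -0.69 ± 0.07 (SE; adjusted p = 0.000238 in edgeR). Its sum with Pou2f2 and the rest of the 4-gene list was 1600 to 1802 CPM in control libraries, and 1348 to 1520 CPM in deficient ones. Pou2f1, the widely expressed octamer factor, was not called (-0.22 ± 0.10 SE, adjusted p = 0.538). Both calls were kept without each of the 7 libraries. Of 25 B cell identity and fate factors Pou2af1 was the only one called, against 0.324% of all genes, and the median of that list was 0.00.

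Immediate early genes are those whose transcripts appear shortly after a stimulus without new protein synthesis. Of 30 tested 4 fell, 0 rose and 26 were not called, while 0.199% of all genes were called lower. The median change was -0.31, and 1 of the 30 lay above 0, against 44.7% of all genes. Junb and Fos encode AP-1 subunits, Dusp1 a phosphatase that switches off MAP kinases, and Zfp36 an RNA-binding protein that promotes decay of messages with AU-rich elements. Junb was at 543, 510, 553 and 488 CPM in controls and 338, 373 and 388 CPM in deficient ones, a fall of 0.52 ± 0.07 (SE; adjusted p = 0.00193 in edgeR). Fos was at 23.3, 20.8, 23.0 and 24.2 CPM in control libraries, and 12.4, 13.6 and 14.5 CPM in deficient ones, a fall of 0.76 ± 0.11 (SE; adjusted p = 0.00465 in edgeR). In both the deficient libraries were close to each other and well under every control library.

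Dusp1 was at 53.5, 62.7, 60.2 and 55.1 CPM in controls and at 41.1, 40.5 and 43.8 CPM in deficient ones (-0.47 ± 0.09 SE, adjusted p = 0.0303 in edgeR). Zfp36 was at 455, 490, 497 and 453 CPM against 358, 372 and 417.5 CPM (-0.31 ± 0.06 SE, adjusted p = 0.0468). The calls of Dusp1 and Zfp36 ended without 5 and 6 of the 7 libraries in turn, with adjusted p up to 0.160 and 0.228, and those of Junb and Fos without none. The summed list was 4301 to 4793 CPM in control libraries and 3369, 3848 and 4103 CPM in deficient libraries 1 to 3. Deficient library 1, the only female one of its group and the one with the most erythroid RNA, was thus the lowest. The median of the list was -0.21 in the fit without the unstimulated and the stimulated deficient library 1. It was -0.55 among female libraries (1 deficient, 3 control) and -0.12 among male libraries (2 deficient, 1 control). The part of sex or of deficient library 1 in it was not tested apart.

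Another AP-1 gene went the other way. Batf, which encodes a dimer partner of JUN proteins that binds DNA with IRF4, was at 8.74, 9.15, 9.50 and 9.58 CPM in control libraries, and 12.7, 12.6 and 14.9 CPM in deficient ones. The rise was 0.53 ± 0.08 (SE; adjusted p = 0.00733 in edgeR), and the call was kept without each library. It was the only one called of 9 tested BATF and interferon regulatory factor genes, while 0.324% of all genes were called. Of these 2 lay above 0, against 44.7% of all genes.

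Of 17 genes for regulators of the Regnase, ZFP36 and Roquin families 1 rose, Zc3h12d, and 1 fell, Zfp36, while 0.324% of all genes were called. Zc3h12d encodes Regnase-4, a relative of Regnase-1 in lymphocytes, and was at 79.6, 88.8, 73.2 and 78.1 CPM in controls and 103, 131 and 122 CPM in deficient ones. It rose by 0.57 ± 0.10 (SE; adjusted p = 0.0303 in edgeR), a call that ended without 5 of the 7 libraries in turn (adjusted p up to 0.162). Dcp2, the decapping enzyme, rose from 64.6 ± 7.67 CPM (SD, n = 4) to 86.3 ± 1.86 CPM (n = 3), or 0.42 ± 0.08 (SE; adjusted p = 0.0490). It was the only one called of 37 general deadenylation, decapping and exosome factors, whose median was -0.03. The call of Dcp2 ended without 6 of the 7 libraries in turn (adjusted p up to 0.223). Zfp36l1 (-0.35 ± 0.08 SE, adjusted p = 0.128) and Zfp36l2 (-0.28 ± 0.08 SE, adjusted p = 0.191), 2 paralogs of Zfp36, were not called.

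Of 24 receptors, adaptors and phosphatases that damp the B cell receptor 1 rose, Fcgr2b, and 0 fell. Over all genes 0.125% were called higher. In the list 12 lay above 0 and the median was 0.03. Fcgr2b, the inhibitory IgG Fc receptor of B cells, was at 133, 149, 146 and 124 CPM in control libraries, and 188, 219 and 193 CPM in deficient ones. It rose by 0.54 ± 0.09 (SE; adjusted p = 0.0174 in edgeR), and the call ended without deficient library 2, control library 1 or control library 4 (adjusted p up to 0.105). Sh3bp5, which is in none of the lists and whose product binds the kinase BTK and dampens it, was at 210, 225, 204 and 207 CPM in controls and at 288.5, 300 and 306.5 CPM in deficient ones. Its rise was 0.50 ± 0.05 (SE; adjusted p = 0.000193), kept without each library, and the 12107 bases that it shares with Capn7 make its level uncertain, since no source used here gives the strand setting of the counting.

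Lax1, a membrane adaptor that limits antigen receptor signals, and Samsn1, an adaptor that limits B cell activation, fell; neither is in that list, and they are described here because they were called. Lax1 was at 187, 201, 174 and 193.5 CPM in control libraries, and 125, 138 and 150 CPM in deficient ones (-0.46 ± 0.07 SE, adjusted p = 0.0134). Samsn1 was at 61.2, 70.4, 68.4 and 71.7 CPM against 53.3, 56.2 and 51.5 CPM (-0.34 ± 0.06 SE, adjusted p = 0.0208). Rgs2, which ends Gq signals of receptors, fell by 0.42 ± 0.08 (SE). In the list, the coreceptor gene Cd72 lay just outside the threshold (0.35 ± 0.07 SE, adjusted p = 0.0530), and Ceacam1 was at 0.55 ± 0.13 (SE; adjusted p = 0.131). None of the 25 genes of the receptor complex and its proximal signalling was called, their median being 0.03, with Cd38 (0.42 ± 0.12 SE, adjusted p = 0.303) and Prkcb (0.20 ± 0.07 SE, adjusted p = 0.434) among the smallest p.

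Of 29 cytokine receptor genes 2 fell, Il21r and Eng, 0 rose and 27 were not called, while 0.199% of all genes were called lower. In the list 7 of 29 lay above 0, against 44.7% of all genes, and the median was -0.14. Il21r, the receptor for the T cell cytokine IL-21, was at 409, 420.5, 413 and 376 CPM in controls and 319, 326 and 328 CPM in deficient ones (-0.32 ± 0.05 SE, adjusted p = 0.0148 in edgeR). Its call ended without deficient library 2 or control library 3 (adjusted p up to 0.0740). Eng, a coreceptor for TGF-β family ligands, was at 44.1, 37.7, 46.0 and 43.4 CPM in control libraries, and 13.3, 15.7 and 25.0 CPM in deficient ones. This was the deepest fall among the called genes, -1.26 ± 0.22 (SE; adjusted p = 0.0374). The call ended without 6 of the 7 libraries in turn, with adjusted p up to 0.213. Il9r, the receptor of IL-9, lay just outside the threshold, at 225 ± 25.2 CPM (SD, n = 4) and 134 ± 26.2 CPM (n = 3), a change of -0.75 ± 0.14 (SE; adjusted p = 0.0521). The shared cytokine receptor chain Il2rg was at -0.26 ± 0.06 (SE; adjusted p = 0.0867).

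In the same pathway as Eng, Smad7, which encodes the inhibitory SMAD that TGF-β induces, fell from 121.5 ± 8.82 CPM (n = 4) to 95.5 ± 7.47 CPM (n = 3), a change of -0.35 ± 0.07 (SE; adjusted p = 0.0400 in edgeR). Of 16 TNF receptor family genes Tnfrsf1b alone was called, against 0.324% of all genes. Tnfrsf13b, the gene for TACI, was at 0.43 ± 0.10 (SE; adjusted p = 0.0985). None of 24 cytokine and chemokine genes was called, and 3 lay above 0 against 44.7% of all genes (median -0.16). Ltb, the gene for lymphotoxin β, was at -0.25 ± 0.08 (SE; adjusted p = 0.311). None of 13 costimulatory and activation genes was called either (median -0.20), the early activation marker Cd69 being at -0.34 ± 0.08 (SE; adjusted p = 0.127).

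One gene of cell death rose. Bmf encodes a BH3-only protein that binds and neutralizes survival proteins of the BCL2 family, and it was at 226, 222, 218 and 179 CPM in controls and 353, 372 and 412 CPM in deficient ones. The rise was 0.84 ± 0.09 (SE; adjusted p = 0.00104 in edgeR), or 1.79-fold, and was kept without each library. Of 8 tested BH3-only and effector genes no other was called, while 0.324% of all genes were. Bbc3 (-0.37 ± 0.12 SE, adjusted p = 0.317) and Bcl2l11 (-0.25 ± 0.10 SE, adjusted p = 0.468) had estimates below 0. None of 7 survival genes of the family was called, with Bcl2 at 0.47 ± 0.11 (SE; adjusted p = 0.115) and Mcl1 at 0.07 ± 0.05 (SE; adjusted p = 0.783).

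Slit3 changed most in fold among the called genes, from a very low level. It encodes a secreted guidance ligand for ROBO receptors that is not typical of B cells. Control libraries held 8, 12, 9 and 15 Slit3 counts and deficient libraries 100, 138 and 82, or 0.295 to 0.490 CPM against 2.77, 4.16 and 3.71 CPM. The change was 3.20 ± 0.30 (SE; adjusted p = 9.65e-05 in edgeR) and was kept without each library. On the deposited log2 values limma gave 1.54 in place of 3.20. The gene spans chromosome 11, 35121224 to 35708507 (plus strand), and overlaps 4 noncoding genes. These include the miRNA gene Mir218-2 on its own strand and a processed pseudogene on the opposite strand. No source used here gives the strand setting of the counting, so the Slit3 level is uncertain.

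Of 7 tested genes linked to CDK5, a kinase best known in neurons, 1 rose, 2 fell and 4 were not called, while over all genes 0.125% rose and 0.199% fell. This list was chosen with earlier results of these data known, so its count does not test whether CDK5-linked genes change as a set. Cdk5rap1, which encodes a tRNA-modifying enzyme of mitochondria first found as a binder of a CDK5 activator, was at 8.99, 8.25, 11.4 and 10.6 CPM in control libraries, and 26.7, 15.5 and 22.4 CPM in deficient ones (1.13 ± 0.20 SE, adjusted p = 0.0303 in edgeR). Cables1, an adaptor between CDK5 and ABL, was at 56.0, 43.0, 53.4 and 44.9 CPM against 26.8, 28.6 and 30.3 CPM (-0.79 ± 0.11 SE, adjusted p = 0.00423). Cdk5r1, which encodes the CDK5 activator p35, fell by 0.54 ± 0.10 (SE; adjusted p = 0.0335). The call of Cables1 was kept without each library, that of Cdk5r1 ended without 5 of the 7 (adjusted p up to 0.162) and that of Cdk5rap1 without 6 (adjusted p up to 0.118).

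Further transcription factor genes fell. Zbtb46, known as a factor of classical dendritic cells, was at 12.6, 11.4, 13.2 and 12.9 CPM in controls and 8.09, 7.23 and 5.39 CPM in deficient ones (-0.85 ± 0.14 SE, adjusted p = 0.0161 in edgeR). The remaining dendritic cell markers did not move with it: the 12 tested had a median of 0.03 with Zbtb46 the only one called, against 0.324% of all genes. The list summed to 926 to 993 CPM in control libraries, and 931 to 974 CPM in deficient ones. Rara, a retinoic acid receptor gene, fell by 0.29 ± 0.05 (SE) and Foxp4, a forkhead factor gene, by 0.27 ± 0.05 (SE). The call of Zbtb46 ended without deficient library 2 or control library 3, with adjusted p up to 0.0702.

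Among the rest, Abcc4, an exporter of cyclic nucleotides and prostaglandins, rose from 44.8 ± 2.38 CPM (SD, n = 4) to 63.6 ± 4.48 CPM (n = 3), a change of 0.51 ± 0.07 (SE; adjusted p = 0.00532 in edgeR). Heatr6 (0.43), the endosomal lipid kinase gene Pikfyve (0.41), the ER disulfide isomerase gene Pdia4 (0.41), Krt222 (0.86) and Anp32a (0.27), which encodes a nuclear phosphoprotein, rose as well. Pdia4 was the only one called of 26 genes of the unfolded protein response and ER folding (median -0.06), against 0.324% of all genes. Herpud1 was at -0.26 ± 0.07 (SE; adjusted p = 0.173).

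Snrnp25, a protein of the minor spliceosome, was at 62.0, 63.5, 49.2 and 53.0 CPM in controls and 38.5, 32.8 and 33.7 CPM in deficient ones (-0.70 ± 0.10 SE, adjusted p = 0.00423 in edgeR). It was the only one called of 57 splicing factors (median 0.00), against 0.324% of all genes. Smaller falls were those of Lrrc8d, a subunit of volume-regulated anion channels (-0.40), Neil1, a DNA glycosylase (-0.47), Grasp, a scaffold protein (-0.49), the small GTPase gene Rrad (-0.47), the kinase gene Sgk1 (-0.42) and the ubiquitin ligase gene Rnf125 (-0.72). The rest of the 27 were a RIKEN-named gene and 1 gene that is not reported here. Outside the threshold the nearest genes were B4galnt1, a ganglioside synthase (-0.28, adjusted p = 0.0513), Il9r, Traf4 (-0.30, adjusted p = 0.0521) and Cd72, while Dcp2, at 0.0490, had the largest adjusted p inside it.

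**Figure D3:**
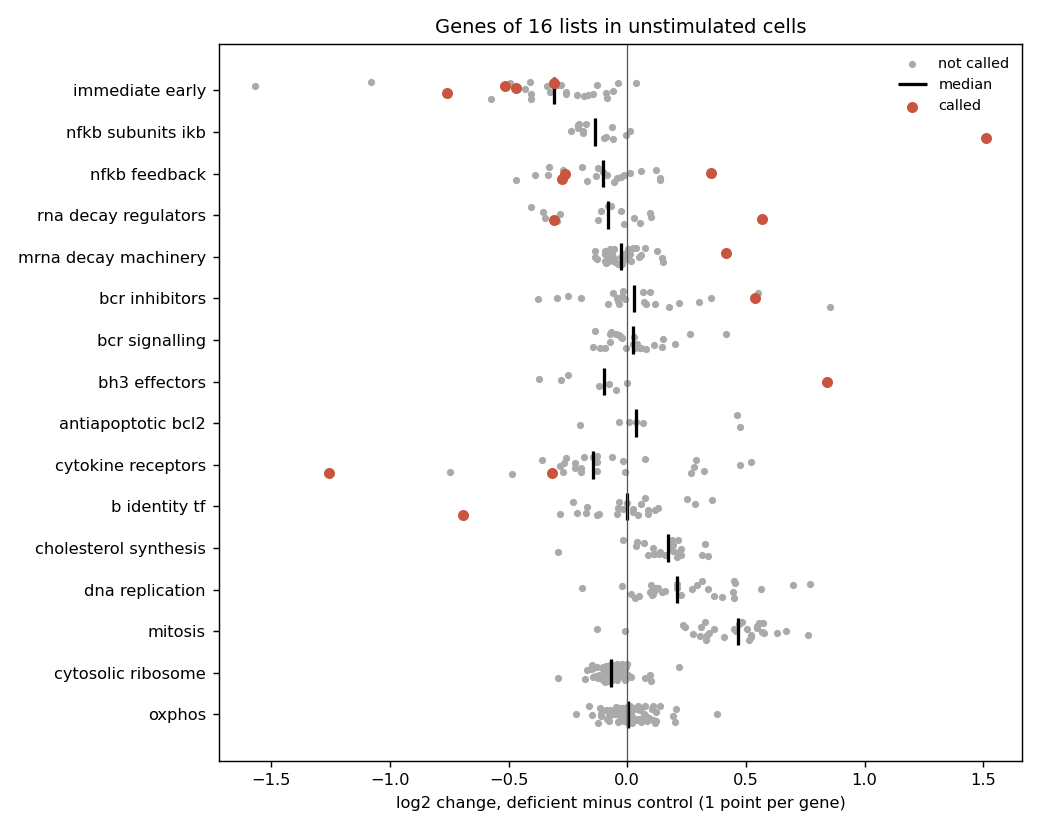
Log2 change, deficient minus control, of every tested gene in 16 of the 61 gene lists (1 point per gene), with the list median as a bar and called genes in red. Immediate early genes lie to the left with 4 of 30 called, Nfkbiz stands alone at 1.51 among the NF-kB genes, and the ribosomal and oxidative phosphorylation lists sit near 0.

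Most of the lists described held no called gene. Of 61 lists, with 1562 distinct tested genes, 40 held 0 and the other 21 held 25 different called genes. Over all 13574 tested genes 0.324% were called. The lists were chosen with earlier results of these data known, so these counts are a description and not a test of the lists. With 0 called were cytosolic ribosomal proteins (82 genes, median -0.07), oxidative phosphorylation (80 genes, median 0.00), Toll-like receptors and adaptors (25 genes, median -0.06), antigen presentation (23 genes, median -0.05), interferon-stimulated genes (31 genes, median 0.06) and quiescence genes of resting lymphocytes (22 genes, median -0.11, with Foxo1 at -0.18 ± 0.08 SE). Cholesterol synthesis genes had no call among 24, with 22 above 0 against 44.7% of all genes and a median of 0.17. Mvk, an early enzyme of that pathway, was at 7.79 ± 0.41 CPM (SD, n = 4) and 9.78 ± 1.08 CPM (n = 3), or 0.33 ± 0.14 (SE; adjusted p = 0.510). The median of the list was -0.10 among female libraries (1 deficient, 3 control) and 0.40 among male libraries (2 deficient, 1 control). Control library 1, the only male control, held the lowest sum of the controls, 1490 CPM against 1521 to 1909 CPM.

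Cell cycle genes were highest in 1 library. Mitosis genes had a median of 0.47 and DNA replication genes of 0.21, each with 0 of 30 called and 28 above 0, but the mitosis genes summed to 2159 CPM in deficient library 1, to 868 and 1106 CPM in deficient libraries 2 and 3, and to 765 to 1372 CPM in control libraries. In the fit without the unstimulated and the stimulated deficient library 1 the medians were -0.03 and 0.01. Among male libraries, which do not include deficient library 1, they were 0.36 and 0.09, and among female libraries 1.02 and 0.54. The male values rest on 1 control, library 1, which had the lowest mitosis sum of the controls (765 CPM). The female values rest on 1 deficient library. What part deficient library 1 or sex had in these medians was not tested. Top2a, which untangles DNA in dividing cells, was at 84.4 ± 18.3 CPM (n = 4) and 123 ± 56.8 CPM (n = 3), and Ndc80 was at 0.23 ± 0.12 (SE; adjusted p = 0.641). The replication licensing gene Cdt1 was at -0.19 ± 0.05 (SE; adjusted p = 0.190). Erythroid markers, all 10 tested of which were above 0 with none called (median 0.51), were also highest in deficient library 1. In the fit without that library and its stimulated counterpart their median was -0.27. The adult globin symbols Hba-a1, Hba-a2 and Hbb-b2 held 0 counts in all 7 libraries. Hbb-bs and Hbb-bt were missing from the deposited counts, and the multi-mapping setting is not given. These 0 counts therefore do not show that globin RNA was absent.

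Markers of other cells in the spleen gave calls only for Zbtb46 and Eng, which stand in the dendritic and the stromal and endothelial lists. Stromal and endothelial markers summed to 253 to 272 CPM in control libraries, and 250 to 323 CPM in deficient ones, with Emcn and Ccl21a at 0 counts in all of them. T cell markers were at 45.6 to 176 CPM and 58.8 to 107 CPM, myeloid markers at 263 to 616 CPM and 186 to 644 CPM, and neutrophil markers at 67.9 to 513.5 CPM and 103 to 546 CPM. In each of these lists the groups overlapped. Platelet markers did not overlap, at 142.5 to 168 CPM in controls and 97.9 to 120.5 CPM in deficient ones, but 0 of 9 were called and 7 lay above 0. Most of that sum was Itgb3, an integrin gene, at 148 ± 11.6 CPM (SD, n = 4) in controls and 94.5 ± 12.2 CPM (n = 3) in deficient libraries (-0.65 ± 0.14 SE, adjusted p = 0.127). The platelet genes Ppbp (1.05), Gp9 (0.91) and Gp1bb (0.84) had estimates above 0, at under 2 CPM in group means, and were not called. In bulk RNA fewer cells of a type and less RNA per cell cannot be told apart.

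**Figure D4:**
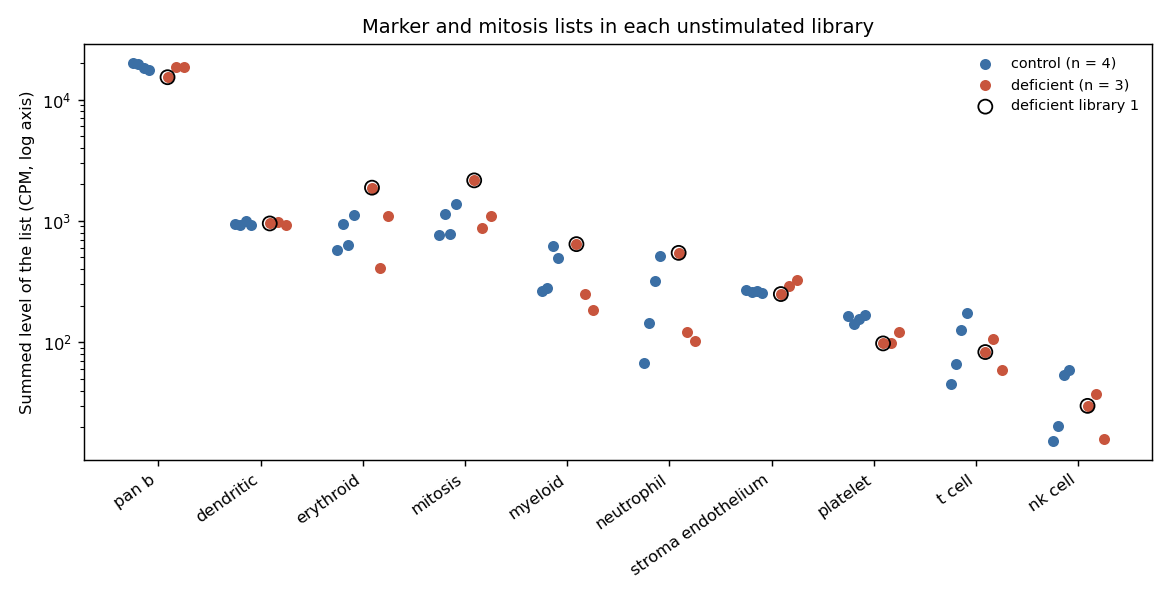
Summed CPM (log axis) of marker lists and of the mitosis list in each unstimulated library, with deficient library 1 ringed. That library is highest for erythroid (1880 CPM), mitosis (2159 CPM), myeloid and neutrophil sums and lowest for the pan-B sum (15280 CPM). Dendritic sums are similar in both groups.

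The number of calls depended on single libraries. Leaving out deficient libraries 1 to 3 in turn gave 27, 17 and 46 calls, and leaving out control libraries 1 to 4 gave 27, 30, 18 and 29. The calls of 12 genes were kept in each of these 7 fits: Nfkbiz, Slit3, Pou2f2, Sh3bp5, Bmf, Abcc4, Batf, Pou2af1, Junb, Fos, Cables1 and Snrnp25. Heatr6, Lax1 and Lrrc8d were lost only without deficient library 2 (adjusted p = 0.0516, 0.0702 and 0.0657). Pikfyve was lost without deficient library 2 or control library 3 (adjusted p up to 0.0520), Grasp without deficient libraries 1 and 2 and control libraries 2 and 3 in turn (up to 0.108) and Tnfaip8 without deficient libraries 1 and 2 and control libraries 2 and 4 in turn (up to 0.0827). Bcl10 (up to 0.202), Rgs2 (up to 0.170) and Sgk1 (up to 0.129) were lost in each of the 7 fits. Fcgr2b, Il21r and Zbtb46 were lost in 3, 2 and 2 of the 7 fits, as given above. The called genes not yet named in this paragraph were lost in 5 or 6 of the 7, with adjusted p up to 0.170 for Anp32a, 0.160 for Pdia4, 0.108 for Krt222, 0.223 for Dcp2, 0.152 for Rara, 0.104 for Rrad, 0.123 for Foxp4 and Neil1, 0.162 for Smad7, 0.149 for Tnfrsf1b, 0.158 for Rnf125 and 0.0769 for Samsn1. A fit that included sex called 198 genes, 45 higher and 153 lower, all 43 of the called genes examined among them.

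The same genotype effect was then read in the stimulated cells, where 273 of 13574 genes (2.01%) were called. All 44 genes had the same sign there and 34 were called in the same direction. Libraries with the same number in both states deviated together from their group means (r of 0.60 to 0.84 across 8376 genes), so the states are not independent and these counts are given only as a description. Nfkbiz went from 295.5, 293.5 and 302 CPM in control to 887, 1032 and 954 CPM in deficient stimulated libraries, a change of 1.69 beside 1.51 unstimulated. Pou2f2 changed by 0.72 beside 0.69 and Slit3 by 3.47 beside 3.20.

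Whether the effect differed between states was tested directly. Without a block 1 gene over all was called (0.00737%), Mapk3, and none of the 44. With the animal as a block, as the correlations allow, 68 genes were called, 3 of them among the 44. Batf was at 46.4, 54.6 and 49.7 CPM in control libraries, and at 113, 125 and 125 CPM in deficient stimulated libraries, so that its rise was larger there by 0.72 ± 0.11 (SE; adjusted p = 0.00285 in edgeR with the block, 0.0608 without). Fcgr2b was at 39.1, 41.5 and 46.9 CPM against 93.2, 91.9 and 75.4 CPM, a rise larger by 0.54 ± 0.09 (SE; adjusted p = 0.00554 with the block, 0.547 without). Samsn1 was at 404, 392 and 392 CPM against 253, 236.5 and 252.5 CPM, a fall larger by 0.37 on the log2 scale (difference -0.37 ± 0.08 SE, adjusted p = 0.0476 with the block, 0.326 without). For Nfkbiz the difference was 0.17 ± 0.07 (SE; adjusted p = 0.564 with the block).

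**Figure D5:**
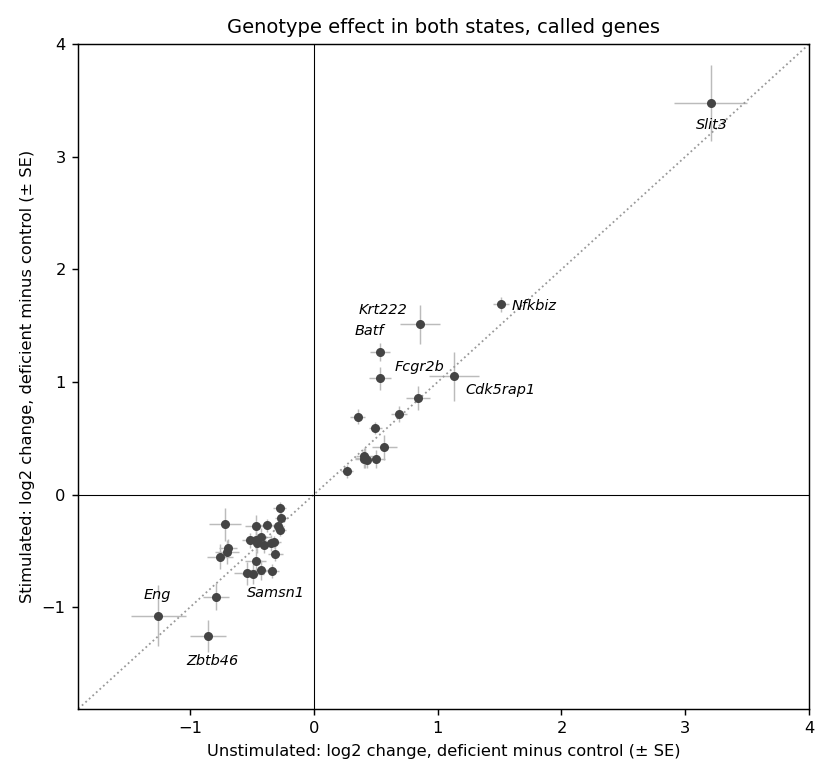
Genotype effect (log2 change, deficient minus control, ± SE) of 43 of the 44 called genes in unstimulated cells (x axis) and after 4 h of stimulation (y axis), with a dotted line of equality. Batf and Fcgr2b lie above the line and Samsn1 below it, and all points have the same sign on both axes.

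Promoters were scanned for octamer and AP-1 related letters, since Pou2f2, Pou2af1, Fos, Junb and Batf were called. RefSeq promoter sequence of GRCm38.p6, from 250 bases before to 50 after the start, was matched for 13 of the genes that rose, 21 that fell and 9614 of all tested. The octamer ATGCAAAT, read on both strands, was in 0 of 13, 0 of 21 and 1.49% of all. The AP-1 motif TGANTCA was in 0 of 13, in 1 of 21 (Zbtb46) and in 5.19% of all. The cyclic AMP response element TGACGTCA was in 0 of 13, in 1 of 21 (Dusp1) and in 3.17% of all. These windows are short, and an absent match says only that the letters are not in them.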

How the data were processed

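RNA-seq was analysed in all 13 libraries, and the comparison uses the 7 unstimulated ones. Raw read counts per gene symbol and, separately, log2 values were deposited for every library by the authors; the submitters' processing notes name TopHat, HTSeq, DESeq2 and the mm10 build, with no versions. Annotation, strand and multi-mapping settings and the exact log2 transformation are not given in the sources used here. One symbol with a missing cell was left out. From the counts, genes passing filterByExpr (minimum count 10) were fitted with edgeR 4.0.16 in R 4.3.3 (TMM, robust quasi-likelihood, 1 mean per group, all 13 libraries, 9 residual degrees of freedom). SE is the log2 change over the root of F. Floors are 3 counts and cover counting error only. No pair of replicates agreed within sampling noise (chi-square per gene at least 8.22).

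The fit was tested on simulated counts. GENCODE vM21 names matched 90.3% of tested genes and all called ones. Library numbers paired states within a genotype (r of 0.60 to 0.84), and the animal block left 4 residual degrees of freedom.

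The members and the 61 gene lists were chosen with earlier results of these data known. Named were Zc3h12a, every called gene other than RIKEN, predicted and immunoglobulin ones (1 is not reported here), and up to 4 genes with the smallest p of each list described. B4galnt1 and Traf4 were added as the nearest to the threshold. Stem-loops needed 6 or more pairs around a 3-base loop in the longest annotated 3′ UTR. Alternatives were other size factors, filters, DESeq2 1.42.0, limma 3.58.1 on the log2 values, only the 7 libraries, replicate block, sex or erythroid level as a term, a minimum fold of 1.5, leaving out libraries, and, added after seeing the data, fits within each sex and of 6 libraries.

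Opposite-strand noncoding genes or overlaps make the levels of Slit3, Pou2f2, Abcc4, Heatr6, Fcgr2b, Tnfaip8, Zc3h12d, Cables1, Lrrc8d, Samsn1, Grasp, Rrad, Foxp4 and Zfp36 uncertain. Overlaps of Junb with Prdx2 (351 bases), Dusp1 with Ergic1 (640) and Eng with Fpgs (61) do the same.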

Additional observations from a re-analysis of the deposited data

Results flagged for a closer look

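Control library 4 stood apart for Lrrc8d, at 252 CPM against 290, 290 and 292 CPM, a gap of 0.954 of the range of the group. Of 44 control groups tested 1 met this rule, and chance gives about 1 in 20.

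The genotype effect on Mapk3, which encodes the kinase ERK1, differed between states by 0.7818 ± 0.0907 (SE; adjusted p = 0.00443 in edgeR without a block). In unstimulated cells it was at 62.6 ± 1.98 CPM (SD, n = 4) in control and 68.3 ± 5.66 CPM (n = 3) in deficient cells, with overlapping groups. After stimulation it was at 23.2 ± 0.674 CPM (n = 3) and 43.5 ± 0.880 CPM (n = 3).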

How the results depend on the processing

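The 44 calls became 70 with upper-quartile factors, 198 when sex was included, 71 when the erythroid level was included, 2 against a minimum fold of 1.5 and 158 in DESeq2. They became 282 within female and 16 within male libraries, 74 without both libraries of deficient animal 1, 81 in the 6 unstimulated libraries without it, and 17 to 46 when 1 library was left out. With the replicate block between genotypes the count was 37; same-numbered libraries of the genotypes did not deviate together (r of -0.65, -0.10 and -0.39), and no deficient library correlated best with its own number. The single difference between states became 12 with upper-quartile factors, 10 with no filter, 68 with the animal as replicate block, 19 with sex, 20 with the erythroid level, 0 against a minimum fold of 1.5 (1 gene without it), 13 without deficient animal 1 and 38 in DESeq2, and 1 to 10 when 1 library was left out. The Zc3h12a change was -0.38 with sex and -0.31 in DESeq2, called in both. Within female libraries, with 1 deficient library, it was -0.49, given as an effect size only. When 1 library was left out the Zc3h12a change was -0.40 to -0.25, and of these fits only that without deficient library 3 called it. Changes moved by over 1.5 times within male libraries for Cdk5r1 (-0.21), Grasp (-0.26), Samsn1 (-0.18) and Anp32a (0.18), within female libraries for Zc3h12d (0.36) and Pikfyve (0.24), and in limma for Slit3 (1.54). Within male libraries the uncalled estimates of Ppbp (-0.0204) and Gp1bb (-0.46) were below 0, the reverse of those over all libraries. The causes were not tested. None of 945 values of 43 called genes under 22 alternatives changed sign, and 313 were no longer called. Deficient animal 1 is the only deficient female, so sex and that animal cannot be told apart.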
